A study of Mus musculus with 8 samples.

Results

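The Wnt ligands, their Frizzled receptors and the secreted and intracellular proteins that hold the pathway in check were followed across a mouse mammary cell model. They were the 43 genes, of 25413 in the count table, whose symbol is that of a Wnt ligand (19 genes), a numbered Frizzled receptor (10), a secreted Frizzled-related protein (4) or a Dickkopf protein (4), together with the co-receptors Lrp5 and Lrp6 (2) and with Lgr4, Znrf3, Rnf43 and Axin2 (4). Membership was decided by name alone and used no measured value. Polyadenylated RNA was sequenced from spheroids, rounded aggregates of cells grown without attachment to a flat dish. EpH4-AS, which the labels call AS-transformed and the submitters describe as malignantly transformed, was compared with the wildtype line EpH4 (labelled WT), and each line was either given PM2.5, fine airborne particulate matter, or left untreated. The 4 groups were thus EpH4-AS with PM2.5, untreated EpH4-AS, EpH4 with PM2.5 and untreated EpH4, with 2 libraries in each. The dose of PM2.5, the time of exposure and the agent that transformed EpH4-AS are not given in the labels used here. Nothing in the labels states that libraries of 1 group are separate cultures, and p values here therefore reflect differences between libraries that may be technical.

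Wnt proteins are lipid-modified secreted ligands. In the canonical branch a Wnt binds a Frizzled receptor together with Lrp5 or Lrp6, the destruction complex built on Axin is disabled, and beta-catenin enters the nucleus, where it acts with TCF and LEF proteins on target genes. Axin2, Rnf43 and Znrf3 are negative regulators, of which Axin2 and Rnf43 are well known targets of beta-catenin. Rnf43 and Znrf3 remove Frizzled receptors from the cell surface, and R-spondins bound to Lgr4 counteract them. Secreted Frizzled-related proteins bind Wnts outside the cell, and Dickkopf proteins such as Dkk1 block Lrp5 and Lrp6. In the mammary gland Wnt4 acts downstream of progesterone in side branching, Wnt10b marks the early mammary placode in the embryo, and Wnt1 and Wnt3 were found as genes activated by mouse mammary tumour virus.

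Total counts ran from 15393256 to 27765982 per library, so that a library with 0 counts for a gene allows up to 0.109 to 0.19 CPM. Levels below are CPM, in which TMM factors bring the library totals to a common size, given as the values of libraries 1 and 2 of a group, and comparisons between genes use the authors' RPKM, which corrects for gene length. Changes are log2 fold changes ± standard error from edgeR's quasi-likelihood test over all 8 libraries, with p values adjusted by Benjamini-Hochberg over the 13716 genes tested and a threshold of 0.05. The standard error is approximate, worked out as the size of the change divided by the square root of the test's F statistic. The labelled cell type was mammary epithelium, but Krt19 and Cldn4 had 0 counts in every library, Krt18 had at most 2 counts over a group, Cdh1 averaged at most 0.134 CPM and Epcam averaged 0.505 and 0.518 CPM in EpH4-AS with and without PM2.5 and had 0 counts in EpH4. Of 14 luminal markers, 4 reached 1 CPM in each EpH4-AS group and 2 in each EpH4 group. Their sums ran the other way, at 30.2 to 31.3 CPM in EpH4-AS with PM2.5 and 29 to 29.2 in untreated EpH4-AS. They were 65.1 to 71.8 CPM in EpH4 with PM2.5 and 60.8 to 66.3 in untreated EpH4, there mostly from Gata3 (60 and 55.7 CPM). Fibroblast markers summed to 425 to 429 CPM in EpH4-AS with PM2.5, 599 to 600 in untreated EpH4-AS, 2510 to 2720 in EpH4 with PM2.5 and 2460 to 2880 in untreated EpH4. The sum in EpH4 came mostly from Col1a2 and Dcn. Of the 8 fibroblast genes tested 6 were lower in EpH4-AS at each treatment, and Col3a1 and Lum were higher. Adipocyte markers summed to 258 to 259, 318 to 325, 1.56 to 2.34 and 3.34 to 4.18 CPM in the same order of groups, largely from Pparg and Cidec. Lep had 0 counts in every group and Adipoq at most 1 count over a group. Plin1 averaged 0.117 and 0.0632 CPM in EpH4-AS with and without PM2.5 and was higher in EpH4, at 0.356 and 0.189. Basal epithelial markers summed to 4.94 to 5.37, 5.69 to 7.1, 67 to 67.9 and 56.7 to 60.5 CPM in that order of groups. The basal sum in EpH4 came mostly from the integrin Itga6 (56.9 and 53 CPM with and without PM2.5), and Krt5 had 0 counts there. Acta2 ran the other way, at 1.26 and 2.27 CPM in EpH4-AS and 0.0807 and 0.0398 in EpH4. Immune markers summed to 39.9 to 41.5, 37.6 to 39.5, 189 to 220 and 172 to 173 CPM, nearly all from Cd68, and Ptprc had at most 2 counts over a group. Mitochondrially encoded transcripts took 0.219 to 0.302% of counts in EpH4-AS and 2.21 to 5.03% in EpH4, and reads of genes outside exons 3.39 to 3.59% and 11.3 to 12.5%. The part of these differences in the contrasts between the lines was not tested. In bulk RNA, fewer cells that make a transcript and less transcript per cell cannot be told apart.

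The lines carried nearly the same number of these genes but not the same set. Of the 43 genes, 9 had 0 counts in all 8 libraries, namely Wnt3, Wnt3a, Wnt7a, Wnt8b, Wnt9b, Fzd10, Sfrp1, Dkk1 and Dkk2. A further 10 had 1 to 21 counts over the 8 libraries together and were not tested (Wnt1, Wnt2, Wnt6, Wnt8a, Wnt10a, Wnt11, Wnt16, Fzd9, Sfrp5 and Dkk4). The remaining 24 were tested, and 22 of them reached a mean of 1 CPM in at least 1 group. At that level there were 18 genes in EpH4-AS with PM2.5, 16 in untreated EpH4-AS, 17 in EpH4 with PM2.5 and 17 in untreated EpH4. With PM2.5 on both sides, 21 of the 24 differed between the lines, 9 higher and 12 lower in EpH4-AS, where 89.0% of all genes tested differed (43.5% higher, 45.5% lower). Between the untreated lines 23 differed, 12 higher and 11 lower in EpH4-AS, against 89.2% of all genes (43.6% higher, 45.7% lower). Most genes of any kind were called between these lines, so these counts are read as no more than the background. The median size of the difference was 2.37 on the log2 scale for the 24 genes and 1.13 for all genes with PM2.5, and 2.44 and 1.18 without it. The filter on low counts admits a gene through the line in which it is high, so these medians describe the tested genes and not all 43.

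**Figure D1:**
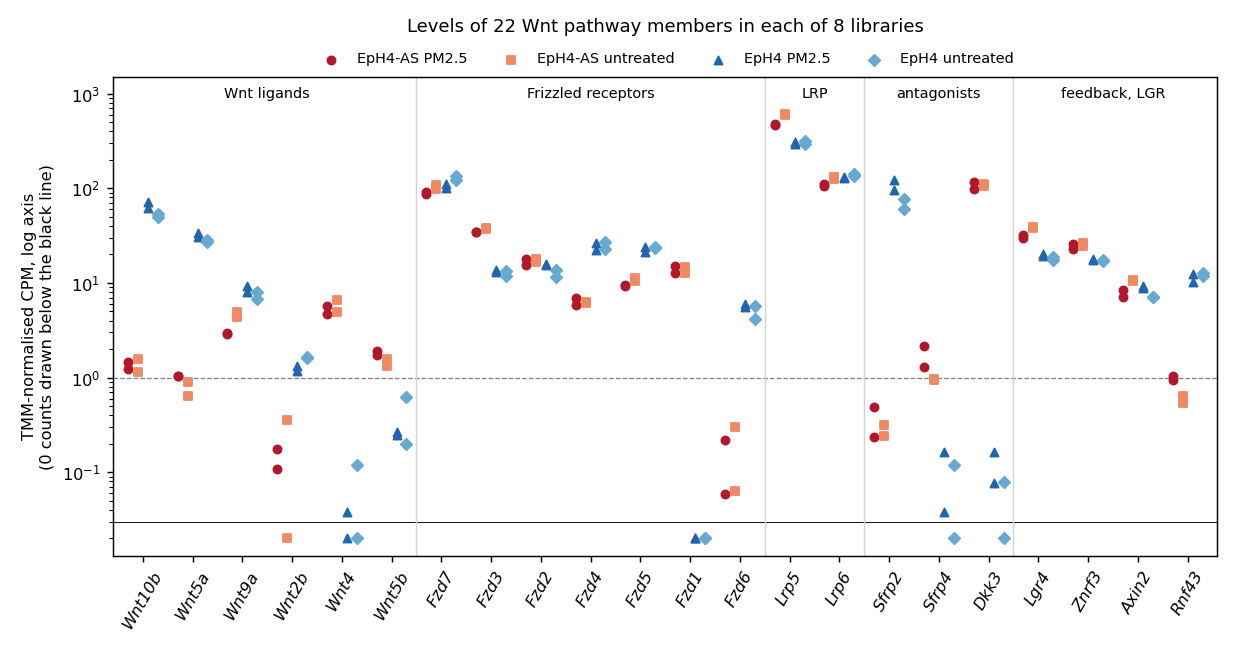
Level of each of the 22 genes that reached 1 CPM in a group (x axis, ordered by role) in every library, as TMM-normalised CPM on a log axis; libraries with 0 counts are drawn below the black line and the dashed line marks 1 CPM. Wnt10b, Wnt5a, Sfrp2, Fzd6 and Rnf43 are high in EpH4 (blue) and at or near 1 CPM or below in EpH4-AS (red and orange), and Dkk3, Fzd1 and Wnt4 show the opposite.

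Several ligands were detected at very different levels in the lines. Wnt10b, a canonical ligand that restrains adipocyte formation, had 1.23 and 1.47 CPM in EpH4-AS with PM2.5, 1.14 and 1.58 in untreated EpH4-AS, 61.4 and 72.3 in EpH4 with PM2.5 and 53.9 and 50.03 in untreated EpH4. Every EpH4-AS library lay far below every EpH4 library, 49.3-fold lower with PM2.5 (log2 -5.62 ± 0.15, adjusted p = 3.84e-14) and 38.1-fold lower without (-5.25 ± 0.15, adjusted p = 1.26e-13). Wnt5a, the prototype of ligands that act without beta-catenin, had 1.05 and 1.03 CPM in EpH4-AS with PM2.5, 0.903 and 0.632 in untreated EpH4-AS, 30.8 and 33.4 in EpH4 with PM2.5 and 28.7 and 27.1 in untreated EpH4. It was 30.7-fold lower in EpH4-AS with PM2.5 and 35.9-fold lower without (log2 -4.94 ± 0.14 and -5.17 ± 0.16). In EpH4-AS the largest Wnt transcripts by RPKM were instead Wnt4 and Wnt9a. Wnt4 had 5.66 and 4.67 CPM in EpH4-AS with PM2.5 and 5.0 and 6.58 in untreated EpH4-AS, against 1 count over the EpH4 libraries with PM2.5 and 3 counts over the untreated ones. The ratio of EpH4-AS to EpH4 was 260 with PM2.5 (exact 95% interval 46.1 to 10300) and 101 without (34.1 to 495), intervals that cover counting error only.

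The remaining ligands were lower in level. Wnt9a, which acts in joint formation, was the only ligand above 2 CPM in all 8 libraries, at 2.86 and 2.99 CPM in EpH4-AS with PM2.5, 4.39 and 4.93 in untreated EpH4-AS, 7.96 and 9.37 in EpH4 with PM2.5 and 6.80 and 7.95 in untreated EpH4. It was lower in EpH4-AS both with PM2.5 (log2 -1.56 ± 0.17) and without (-0.66 ± 0.16). Wnt2b had 0.175 and 0.109 CPM in EpH4-AS with PM2.5, 0.361 and 0 in untreated EpH4-AS, 1.18 and 1.31 in EpH4 with PM2.5 and 1.67 and 1.63 in untreated EpH4, and was 8.55-fold and 8.69-fold lower in EpH4-AS with and without PM2.5. Of its EpH4 reads 57.3 to 62.7% lay outside exons, so its level there is uncertain. Wnt5b, a close relative of Wnt5a, had 1.93 and 1.74 CPM in EpH4-AS with PM2.5, 1.56 and 1.33 in untreated EpH4-AS, 0.267 and 0.247 in EpH4 with PM2.5 and 0.618 and 0.199 in untreated EpH4. Its difference ran opposite to that of Wnt5a, 6.98-fold higher in EpH4-AS with PM2.5 (log2 2.80 ± 0.45) and 3.44-fold higher without (1.78 ± 0.43). The Wnt5b span overlaps Fbxl14 on the other strand, which had 6353 counts in EpH4-AS and 4972 in EpH4, and 108 to 154 reads per EpH4 library fell in the Wnt5b span outside its exons against 5 to 17 inside, so its level is uncertain. The library kit marks the strand of a transcript, and whether the counting used it is not given in the sources used here. Wnt7b stayed under 1 CPM everywhere, was 7.40-fold higher in EpH4-AS without PM2.5 (24 counts against 5) and did not pass the test with PM2.5 (14 counts against 15). Between 53.8 and 80.6% of its reads per library lay outside exons. Wnt11 had 12 and 9 counts in EpH4-AS with and without PM2.5 and 0 in EpH4, which puts EpH4-AS at least 5.69-fold and 4.87-fold higher when 3 counts are allowed over each EpH4 group.

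Several Wnt genes sit in pairs on the chromosome. In some pairs 1 gene was on without its neighbour, and in others neither was on. Wnt10b (chromosome 15, 98668593 to 98676031, minus strand, GRCm39) lies 11.7 kb from Wnt1 (98687738 to 98691718, plus strand), the ligand gene first found through mammary tumour virus insertions, and the genes are transcribed away from each other. Wnt1 had 1 count in each EpH4-AS group, 3 counts in EpH4 with PM2.5 and 2 in untreated EpH4. Wnt10b had 3371 and 2741 counts in EpH4 with and without PM2.5 and only 48 and 44 in EpH4-AS, so the contrast of the pair is mainly one of EpH4. Wnt9a lies 16.2 kb from Wnt3a on chromosome 11, and Wnt3a had 0 counts in all 8 libraries. The pair of Wnt6 and Wnt10a, 6.2 kb apart, held at most 7 counts per group and gene, and the pair of Wnt9b and Wnt3 held none. The windows from 250 bases before to 50 bases after the start of Wnt10b and Wnt1 are shown because they are the nearest contrast between an active and a silent ligand gene; they are RefSeq sequences on GRCm38.p6 (chr15:98778101-98778400, minus strand, and chr15:98789607-98789906, plus strand), written 5′ to 3′ with each CpG in capitals.
Wnt10b: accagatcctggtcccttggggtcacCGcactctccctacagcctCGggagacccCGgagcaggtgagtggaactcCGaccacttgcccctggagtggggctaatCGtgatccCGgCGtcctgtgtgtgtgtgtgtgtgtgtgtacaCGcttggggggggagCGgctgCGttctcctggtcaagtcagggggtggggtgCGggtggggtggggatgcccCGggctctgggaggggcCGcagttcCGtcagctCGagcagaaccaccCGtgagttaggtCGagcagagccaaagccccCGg
Wnt1: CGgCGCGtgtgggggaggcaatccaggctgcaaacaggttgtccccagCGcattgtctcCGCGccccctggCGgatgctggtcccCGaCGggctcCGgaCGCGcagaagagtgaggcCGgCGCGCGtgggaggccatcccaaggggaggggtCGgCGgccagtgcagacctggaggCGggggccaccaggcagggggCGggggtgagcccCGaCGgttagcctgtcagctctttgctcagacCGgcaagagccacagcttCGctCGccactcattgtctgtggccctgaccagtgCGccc
The Wnt10b window held 18 CpG and the Wnt1 window 26, against a median of 7 over 32851 windows of the same length, so the silent gene of the pair had the denser window of these sequences. Methylation was not measured.

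Summed per length, the 19 ligands made 3.34 ± 0.173 RPKM in EpH4-AS with PM2.5, 3.92 ± 0.341 in untreated EpH4-AS, 22.8 ± 2.55 in EpH4 with PM2.5 and 18.4 ± 0.956 in untreated EpH4 (SD, n = 2). The sums of the lines did not overlap, and no test was run on them. Wnt10b made up 11.1%, 9.62%, 71.4% and 68.7% of that sum in those groups, and Wnt5a 4.12%, 2.67%, 16.6% and 17.8%. In EpH4-AS the sum was instead spread over Wnt4 (34.2% with PM2.5 and 33.2% without), Wnt9a (24.5% and 33.8%) and Wnt5b (19.2% and 13.3%). A low total without a dominant ligand thus stood against a higher total carried by 1 ligand.

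**Figure D2:**
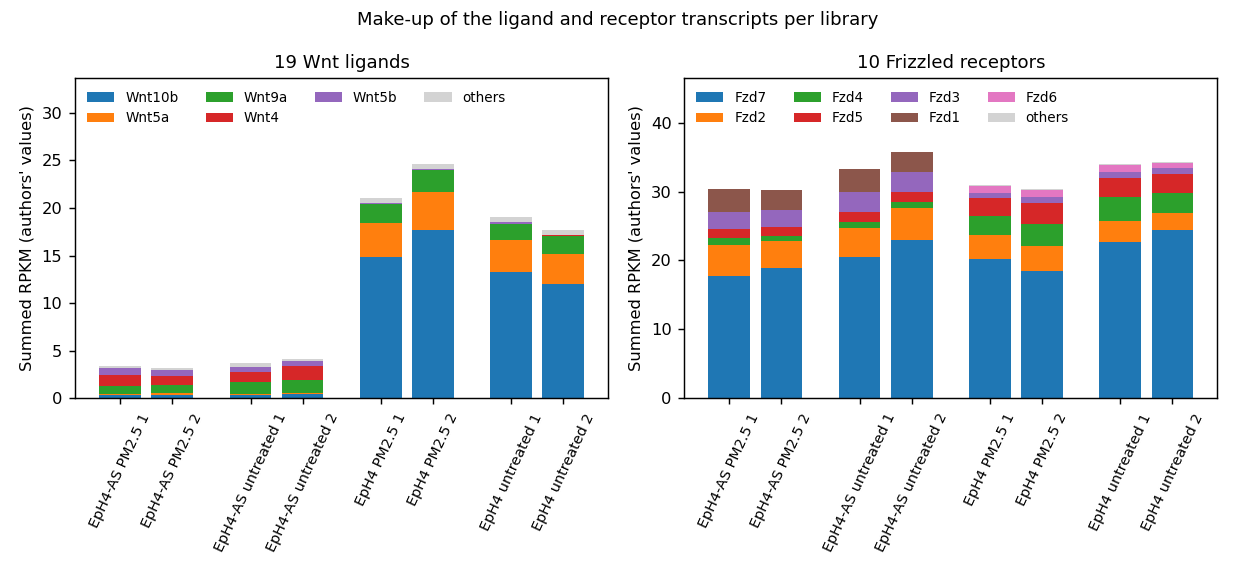
Summed RPKM of the 19 Wnt ligands (left) and the 10 Frizzled receptors (right) in each of the 8 libraries, stacked by gene, with the authors' RPKM on the y axes. The ligand bars are 3.21 to 4.16 RPKM tall in EpH4-AS and 17.7 to 24.6 in EpH4, mostly Wnt10b, while the receptor bars reach similar heights in both lines with Fzd7 as the largest block in each.

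In the authors' RPKM the summed Frizzled level was similar in the lines, and its make-up was not. The 10 Frizzled genes summed to 30.3 ± 0.0948 RPKM in EpH4-AS with PM2.5, 34.5 ± 1.67 in untreated EpH4-AS, 30.6 ± 0.419 in EpH4 with PM2.5 and 34.1 ± 0.208 in untreated EpH4 (SD, n = 2). At each treatment the libraries of the lines overlapped in RPKM, and no sum was made on the TMM scale. The scales differ between the lines. As log2(RPKM + 1), the median difference of all genes, EpH4-AS against EpH4, was 0.086 with PM2.5 and 0.096 without. In the edgeR fit with TMM factors it was -0.037 and -0.055. Fzd7, a receptor known from stem cells of the gut and the mammary gland, held 60.4%, 62.9%, 63.1% and 68.9% of the sum. It had 87.1 and 91.7 CPM in EpH4-AS with PM2.5, 98.6 and 109 in untreated EpH4-AS, 111 and 100.3 in EpH4 with PM2.5 and 123 and 135 in untreated EpH4. These levels were lower in EpH4-AS with PM2.5 (log2 -0.24 ± 0.07, adjusted p = 0.00487) and without (-0.31 ± 0.07, adjusted p = 0.000718). The difference was small beside those that follow. It was not called by limma on log2(RPKM + 1), the measure with the higher median for EpH4-AS (log2 -0.08, adjusted p = 0.342 with PM2.5 and log2 -0.11, adjusted p = 0.174 without). With PM2.5 it was also not called without EpH4-AS PM2.5 replicate 1 (adjusted p = 0.0651) or without EpH4 PM2.5 replicate 1 (adjusted p = 0.0582).

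Of the other Frizzleds, Fzd1 and Fzd3 were higher in EpH4-AS at both treatments, and Fzd4, Fzd5, Fzd6 and Fzd8 were lower. Fzd1 had 15.1 and 12.7 CPM in EpH4-AS with PM2.5, 14.7 and 12.8 in untreated EpH4-AS and 0 counts in all 4 EpH4 libraries, which makes it at least 233-fold higher in EpH4-AS with PM2.5 and at least 241-fold higher without, with 3 counts allowed over each EpH4 group. Fzd3, which works in axon guidance and planar polarity, had 34.2 and 34.5 CPM in EpH4-AS with PM2.5, 38.4 and 37.1 in untreated EpH4-AS, 13.1 and 13.7 in EpH4 with PM2.5 and 11.8 and 13.4 in untreated EpH4. The Fzd3 libraries of the lines were well apart, 2.57-fold (log2 1.36 ± 0.08) and 2.99-fold (1.58 ± 0.08) higher in EpH4-AS. On the other side Fzd6, also a planar polarity receptor, had 0.0583 and 0.217 CPM in EpH4-AS with PM2.5, 0.301 and 0.0632 in untreated EpH4-AS, 5.60 and 5.96 in EpH4 with PM2.5 and 5.74 and 4.18 in untreated EpH4, which was 39.5-fold and 26.1-fold lower in EpH4-AS with and without PM2.5. Fzd4, the receptor for Norrin in retinal vessels, had 7.0 and 5.86 CPM in EpH4-AS with PM2.5, 6.2 and 6.32 in untreated EpH4-AS, 22.6 and 26.5 in EpH4 with PM2.5 and 27.1 and 22.9 in untreated EpH4. It was lower in EpH4-AS, 3.81-fold with PM2.5 (log2 -1.93 ± 0.13) and 4.0-fold without (-2.0 ± 0.13). Fzd5 had 9.63 and 9.28 CPM in EpH4-AS with PM2.5, 11.2 and 10.6 in untreated EpH4-AS, 21.4 and 24.1 in EpH4 with PM2.5 and 23.6 and 23.9 in untreated EpH4, and was 2.41-fold and 2.18-fold lower in EpH4-AS. Fzd8 was at most 1 count per EpH4-AS library against 12 to 23 per EpH4 library, a ratio of 13.7 (3.55 to 117) lower in EpH4-AS with PM2.5 and 21.6 (3.62 to 875) lower without. Fzd2 was similar in both lines, at 18.0 and 15.5 CPM in EpH4-AS with PM2.5, 16.5 and 17.9 in untreated EpH4-AS, 15.4 and 15.9 in EpH4 with PM2.5 and 13.7 and 11.7 in untreated EpH4. Its libraries overlapped between the lines with PM2.5 (log2 0.10 ± 0.11, adjusted p = 0.38) and did not without (0.43 ± 0.11, adjusted p = 0.00186).

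Both co-receptors were well expressed everywhere, and Lrp5 was the stronger in every group, with 80.7%, 81.9%, 68.9% and 68.3% of their summed RPKM in EpH4-AS with PM2.5, untreated EpH4-AS, EpH4 with PM2.5 and untreated EpH4. Lrp5, a gene known for its control of bone mass, had 474 and 463 CPM in EpH4-AS with PM2.5, 606 and 594 in untreated EpH4-AS, 290.4 and 307 in EpH4 with PM2.5 and 319 and 297 in untreated EpH4. All EpH4-AS libraries were above all EpH4 libraries, by 0.65 ± 0.05 on the log2 scale with PM2.5 and by 0.96 ± 0.05 without (adjusted p = 2.57e-08 and 2.35e-10). Lrp6 had 106 and 110.4 CPM in EpH4-AS with PM2.5, 126 and 131 in untreated EpH4-AS, 131 and 129.6 in EpH4 with PM2.5 and 136 and 140.2 in untreated EpH4. It was lower in EpH4-AS with PM2.5 (log2 -0.26 ± 0.05, adjusted p = 0.000197) and not called without (-0.10 ± 0.05, adjusted p = 0.072). By limma on log2(RPKM + 1), whose median over all genes was higher for EpH4-AS as given above, the difference of Lrp6 with PM2.5 was not called either (adjusted p = 0.0941).

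Of the secreted antagonists, Sfrp2 was the abundant member in EpH4 and Dkk3 in EpH4-AS. Sfrp2, a Wnt-binding protein made by mesenchymal cells, had 0.233 and 0.489 CPM in EpH4-AS with PM2.5, 0.241 and 0.316 in untreated EpH4-AS, 95.3 and 124 in EpH4 with PM2.5 and 77.2 and 61.0 in untreated EpH4. It was 294-fold lower in EpH4-AS with PM2.5 (log2 -8.20 ± 0.26, adjusted p = 2.84e-13) and 244-fold lower without (-7.93 ± 0.29, adjusted p = 1.57e-12). Dkk3, a divergent Dickkopf protein whose action on Wnt signalling varies by cell type, ran the other way, with 116 and 99.0 CPM in EpH4-AS with PM2.5 and 111 and 106 in untreated EpH4-AS, against 6 counts over the EpH4 libraries with PM2.5 and 2 counts over the untreated ones. It was 863-fold higher in EpH4-AS with PM2.5, and the ratio without was 2860 (792 to 23700). Sfrp4 was weak, at 1.28 and 2.17 CPM in EpH4-AS with PM2.5, 0.963 and 0.949 in untreated EpH4-AS and at most 4 counts in any EpH4 library, 16.6-fold higher in EpH4-AS with PM2.5 with a ratio of 16.8 (5.23 to 85.8) without. Summed, the Sfrp genes made 0.551, 0.380, 45.3 and 28.6 RPKM and the Dickkopf genes 29.7, 30.7, 0.0297 and 0.00967 RPKM in EpH4-AS with PM2.5, untreated EpH4-AS, EpH4 with PM2.5 and untreated EpH4. Within the Sfrp and Dickkopf families each line thus made 1 abundant transcript, in RPKM above any of its own ligands. The window around the Sfrp2 start is shown because this gene was further below its EpH4 level in EpH4-AS than any other of the 24 genes tested (RefSeq, GRCm38.p6, chr3:83766071-83766370, plus strand, CpG in capitals).
Sfrp2: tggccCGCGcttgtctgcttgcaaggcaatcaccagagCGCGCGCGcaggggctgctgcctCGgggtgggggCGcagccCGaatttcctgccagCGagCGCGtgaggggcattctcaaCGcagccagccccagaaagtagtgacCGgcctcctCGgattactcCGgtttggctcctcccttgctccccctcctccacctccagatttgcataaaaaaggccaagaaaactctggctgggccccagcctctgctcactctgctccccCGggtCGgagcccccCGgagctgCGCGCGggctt
It held 22 CpG.

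Of the membrane ligases Rnf43 was lower and Znrf3 higher in EpH4-AS. Rnf43 had 0.934 and 1.03 CPM in EpH4-AS with PM2.5, 0.542 and 0.632 in untreated EpH4-AS, 10.2 and 12.3 in EpH4 with PM2.5 and 12.7 and 11.7 in untreated EpH4. It was 11.4-fold lower in EpH4-AS with PM2.5 and 20.7-fold lower without (log2 -3.51 ± 0.20 and -4.37 ± 0.22), while 26.4 to 36.3% of its EpH4 reads lay outside exons. Its partner Znrf3 had 25.7 and 23.1 CPM in EpH4-AS with PM2.5, 26.1 and 24.9 in untreated EpH4-AS, 17.4 and 18.0 in EpH4 with PM2.5 and 17.6 and 17.2 in untreated EpH4. Znrf3 was 1.38-fold and 1.47-fold higher in EpH4-AS (log2 0.47 ± 0.08 with PM2.5 and 0.55 ± 0.08 without). Lgr4, an R-spondin receptor, had 32.3 and 29.96 CPM in EpH4-AS with PM2.5, 39.0 and 38.1 in untreated EpH4-AS, 19.2 and 20.3 in EpH4 with PM2.5 and 17.4 and 18.9 in untreated EpH4, 1.57-fold and 2.12-fold higher in EpH4-AS. Its relative Lgr6 ran the other way and was called lower in EpH4-AS at both treatments. Lgr6 averaged 0.142 and 0.184 CPM in EpH4-AS with and without PM2.5 and 2.23 and 2.03 in EpH4. Lgr5 had at most 1 count over a group. The R-spondins themselves were nearly absent, since Rspo1 had at most 10 counts in any library, Rspo4 at most 1, and Rspo2 and Rspo3 had 0 in all libraries.

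Axin2, the feedback inhibitor most often read as a sign of beta-catenin activity, differed between the untreated lines and was not called between them with PM2.5. It had 8.35 and 7.06 CPM in EpH4-AS with PM2.5, 10.7 and 10.6 in untreated EpH4-AS, 8.80 and 9.37 in EpH4 with PM2.5 and 7.16 and 7.20 in untreated EpH4. Without PM2.5 both EpH4-AS libraries were above both EpH4 libraries (log2 0.57 ± 0.12, adjusted p = 0.0005). With PM2.5 both were below, and the difference was not called (log2 -0.24 ± 0.12, adjusted p = 0.0793), though it was without EpH4-AS PM2.5 replicate 1 (adjusted p = 0.0479). Its window is shown as that of the usual beta-catenin target among these genes (RefSeq, GRCm38.p6, chr11:108920099-108920398, plus strand, CpG in capitals).
Axin2: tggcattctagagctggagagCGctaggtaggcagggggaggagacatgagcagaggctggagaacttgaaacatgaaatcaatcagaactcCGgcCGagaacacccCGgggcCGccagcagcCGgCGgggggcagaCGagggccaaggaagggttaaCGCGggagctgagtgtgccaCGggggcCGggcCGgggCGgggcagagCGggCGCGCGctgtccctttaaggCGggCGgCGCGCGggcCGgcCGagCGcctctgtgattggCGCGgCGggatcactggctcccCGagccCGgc
It held 31 CpG and 70.0% G and C. Neither CTTTGAT nor CTTTGAA, letters that TCF and LEF proteins recognise, was found in it on either strand, which says only that they are not within these 300 bases.

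PM2.5 lowered a small group of Wnt pathway genes in EpH4-AS and raised none that passed the test. Of the 24 genes tested, 5 fell, namely Lrp5, Lrp6, Lgr4, Axin2 and Wnt9a (20.8%), where 11.1% of all genes were called (6.39% higher and 4.75% lower). Lrp5 averaged 468 ± 7.95 CPM with PM2.5 and 600 ± 8.65 untreated (SD, n = 2), a fall of 1.28-fold (log2 -0.36 ± 0.05, adjusted p = 0.000792) that was called in all 16 alternative analyses. Lrp6 averaged 108 ± 2.85 and 129 ± 3.20 CPM with and without PM2.5 (log2 -0.25 ± 0.05, adjusted p = 0.00818). Thus both co-receptor transcripts fell, and their summed level was 55.3 ± 0.177 RPKM with PM2.5 and 71.3 ± 0.183 untreated (SD, n = 2). Lgr4 averaged 31.1 ± 1.63 and 38.5 ± 0.666 CPM (log2 -0.31 ± 0.08, adjusted p = 0.0185). Axin2 averaged 7.70 ± 0.911 CPM with PM2.5 and 10.6 ± 0.0226 untreated (log2 -0.47 ± 0.13, adjusted p = 0.0295). The largest of these falls in size was that of Wnt9a, 2.92 ± 0.0893 and 4.66 ± 0.380 CPM with and without PM2.5 (log2 -0.67 ± 0.20, adjusted p = 0.04). In each of these genes both libraries with PM2.5 were below both untreated ones. Without any 1 of the 4 EpH4-AS libraries only Lrp5 was still called, so the other falls rest on all 4. No Frizzled gene was called by edgeR (0 of 8, with 1 at an unadjusted p under 0.05), by DESeq2 (0) or by limma (0), and Fzd7, at log2 -0.22 ± 0.07 with adjusted p = 0.0737, was called in some of the alternative analyses. Dkk3 and Wnt4, an abundant antagonist and a leading ligand transcript of this line, had log2 changes of -0.02 ± 0.08 and -0.16 ± 0.24 with overlapping libraries. Of the markers above, the fibroblast, adipocyte and basal sums were also lower with PM2.5 in EpH4-AS, and the luminal and immune sums were higher. In these lists 3 of 8 fibroblast and 2 of 3 adipocyte genes tested were called, all lower, and 0 basal, luminal or immune genes. The part of these in the falls was not tested.

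In EpH4, of the 24 genes tested with PM2.5, 3 rose (Sfrp2, Wnt10b and Axin2) and 1 fell (Fzd7), which is 16.7% where 27.2% of all genes were called (14.3% higher and 12.9% lower), so the count itself was below the background. Sfrp2 averaged 109 ± 19.9 CPM with PM2.5 and 69.1 ± 11.5 untreated (SD, n = 2), a rise of 1.58-fold (log2 0.66 ± 0.11, adjusted p = 0.000687) that held in all 16 alternative analyses. The libraries of that gene spread widely within a group, but both with PM2.5 were above both untreated ones. Wnt10b averaged 66.9 ± 7.75 and 52.0 ± 2.75 CPM (log2 0.36 ± 0.08, adjusted p = 0.00399), and without EpH4 PM2.5 replicate 2, its highest library, it was not called (adjusted p = 0.0666). The main ligand transcript of EpH4 and its main transcript of the Sfrp and Dickkopf families thus both rose. Fzd7 averaged 106 ± 7.89 and 129 ± 8.80 CPM with and without PM2.5 (log2 -0.28 ± 0.07, adjusted p = 0.00717), and was not called without EpH4 PM2.5 replicate 2 (adjusted p = 0.0771) or without EpH4 untreated replicate 2 (adjusted p = 0.0537). The rise of Axin2, 9.09 ± 0.403 and 7.18 ± 0.0259 CPM, was at the edge of the threshold (log2 0.34 ± 0.12, adjusted p = 0.0449) and was not called in 13 of 16 alternatives, with adjusted p between 0.0348 and 0.248 over all 16. Fzd2 and Wnt5a stood just outside the threshold (log2 0.30 ± 0.11, adjusted p = 0.0502, and 0.20 ± 0.08, adjusted p = 0.0762). Neither co-receptor was called, Lrp5 at log2 -0.04 ± 0.05 (adjusted p = 0.602) and Lrp6 at -0.08 ± 0.05 (adjusted p = 0.243). Without EpH4 PM2.5 replicate 2 only Sfrp2 remained, and without EpH4 untreated replicate 2 Sfrp2 and Wnt10b. Mitochondrially encoded transcripts took 4.23 to 5.03% of counts with PM2.5 and 2.21 to 2.72% without in this line. Of the marker lists, 1 of 5 tested basal and 1 of 2 tested immune genes were called higher with PM2.5 in EpH4, and 1 of 8 fibroblast and 1 of 3 adipocyte genes lower. The basal keratin Krt14 averaged 8.59 ± 0.404 CPM with PM2.5 and 3.17 ± 0.202 untreated, and Cd68 204 ± 21.9 and 172 ± 0.157 (SD, n = 2). The part of these in the changes was not tested.

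**Figure D3:**
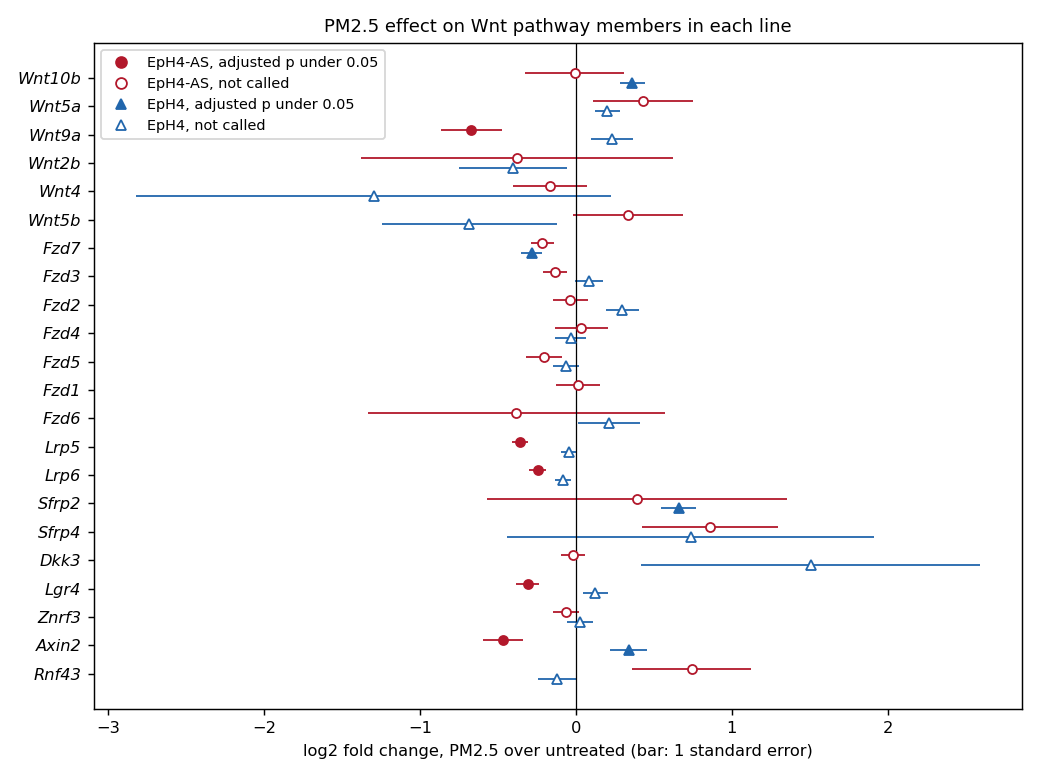
Log2 fold change of PM2.5 over untreated (x axis, bars of 1 standard error) for the 22 genes that reached 1 CPM, in EpH4-AS (circles) and EpH4 (triangles), filled where the adjusted p was under 0.05. The filled circles of Lrp5, Lrp6, Lgr4, Axin2 and Wnt9a lie left of 0, and the filled triangles of Sfrp2, Wnt10b and Axin2 lie right of it with Fzd7 on the left; Fzd1 in EpH4 is not drawn as it had 0 counts.

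Whether the response to PM2.5 itself differed between the lines was tested as the effect in EpH4-AS minus the effect in EpH4. Of the 24 genes 4 differed, all with a lower effect in EpH4-AS (16.7%, where 14.1% of all genes were called, 7.60% higher and 6.49% lower). The count over both directions was thus near the background, and what follows describes single genes. Axin2 went in opposite directions, with log2 changes of -0.47 in EpH4-AS and 0.34 in EpH4 and a difference of -0.81 ± 0.17 (adjusted p = 0.00694) that was called in all 15 alternatives (adjusted p 0.000685 to 0.0464). Its rise in EpH4 taken alone was not stable, as given above, so the difference is firmer than that side of it. Wnt9a had -0.67 in EpH4-AS and 0.23 in EpH4, of which the second was not called, a difference of -0.90 ± 0.24 (adjusted p = 0.0206). For Lgr4 the changes were -0.31 and 0.12 and the difference -0.43 ± 0.11 (adjusted p = 0.0177), and for Lrp5 -0.36 and -0.04 with a difference of -0.31 ± 0.08 (adjusted p = 0.0142). The last 3 were not called without either untreated EpH4-AS library (adjusted p 0.0614 to 0.12), nor without EpH4-AS PM2.5 replicate 2 (0.0686 to 0.099). Without EpH4-AS PM2.5 replicate 1 Lrp5 (0.0595) and Wnt9a (0.0861) were not called, and without EpH4 PM2.5 replicate 2 Lgr4 (0.0619) and Wnt9a (0.069). DESeq2 called Axin2 and Lrp5 and gave adjusted p of 0.0724 for Lgr4 and 0.0748 for Wnt9a. The differences in effect were not called for the other 3 genes that changed in EpH4, Sfrp2 (log2 -0.27 ± 1.03, adjusted p = 0.915), Wnt10b (-0.37 ± 0.33, 0.505) and Fzd7 (0.07 ± 0.10, 0.709), which does not show that they responded alike. For Fzd1 the comparison is void, since EpH4 had no counts.

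**Figure D4:**
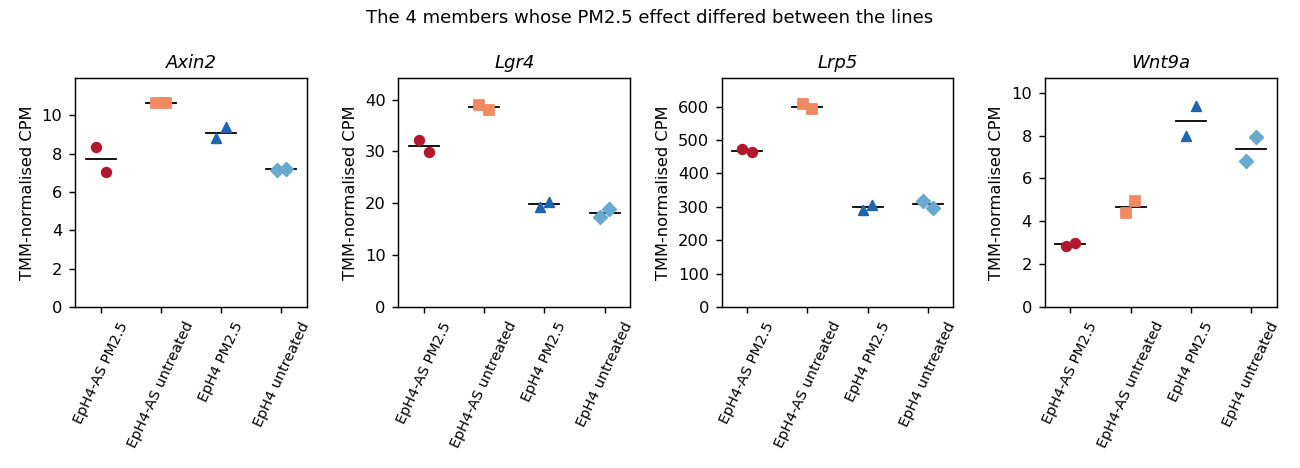
TMM-normalised CPM (y axes, from 0) of the 4 genes whose PM2.5 effect differed between the lines, with each library as a point and the mean of a group as a line. Axin2 is lower with PM2.5 in EpH4-AS and higher with PM2.5 in EpH4; Lgr4, Lrp5 and Wnt9a are lower with PM2.5 in EpH4-AS, while in EpH4 none of these 3 was called.

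The rest of the pathway was read from lists of its parts. Of 6 genes of Wnt secretion and release, all were tested, and 2 rose and 3 fell in EpH4-AS against EpH4 with PM2.5 (2 and 2 without). These counts and those of the lists that follow stand against 89.0% and 89.2% of all genes called between the lines with and without PM2.5, in near equal shares higher and lower, so they are read as no more than the background. Porcn, the enzyme that attaches the lipid to Wnts, was 2.35-fold and 3.05-fold higher in EpH4-AS with and without PM2.5 (77.9 and 86.5 CPM on average, against 33.1 and 28.4 in EpH4), although the ligand sum was lower there. Wls, which carries Wnts to the surface, averaged 212 and 210 CPM in EpH4-AS and 224 and 225 in EpH4 with and without PM2.5. With PM2.5, 2 genes of this list fell in EpH4-AS and none rose, where 11.1% of all genes were called, and 3 rose and 1 fell in EpH4, where 27.2% were. DESeq2 called 0 rises in EpH4 and limma on log2(RPKM + 1) called 2. The effect of PM2.5 was lower in EpH4-AS than in EpH4 for Tmed5, Trabd2b and Porcn (log2 -0.44 ± 0.08, -0.59 ± 0.12 and -0.37 ± 0.09). That was 3 of the 6 genes, where 14.1% of all genes were called. Among 11 antagonists outside the families above, 3 were tested and all were lower in EpH4-AS at both treatments: Kremen1, a Dickkopf co-receptor (9.61 and 14.5 CPM in EpH4-AS with and without PM2.5, 51.7 and 61.0 in EpH4), Igfbp4, a secreted protein better known for binding insulin-like growth factors (596 and 564 against 1570 and 1760 CPM), and Apcdd1, a membrane inhibitor (0.449 and 0.403 against 17.7 and 14.2 CPM). In CPM Igfbp4 was thus above Dkk3 in EpH4-AS and above Sfrp2 in EpH4, and it was not called with PM2.5 in either line (adjusted p = 0.514 in EpH4-AS and 0.0805 in EpH4).

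Of 14 alternative Wnt receptors and planar polarity genes 13 were tested, and at each treatment 7 were higher and 5 lower in EpH4-AS. Ror1, a receptor tyrosine kinase for Wnt5a, averaged 12.6 and 17.6 CPM in EpH4-AS with and without PM2.5 and 0.615 and 0.404 in EpH4 (20.4-fold and 43.4-fold higher), whereas Ptk7 was 21.9-fold and 18.3-fold lower (3.77 and 4.16 CPM against 83.3 and 76.3). The planar polarity gene Vangl2 averaged 26.2 and 26.0 CPM in EpH4-AS and had 0 counts in EpH4. Ryk and Ror1, which both bind Wnt5a, fell with PM2.5 in EpH4-AS (log2 -0.46 ± 0.05 and -0.48 ± 0.14), and the effect on Ryk differed from that in EpH4 (-0.35 ± 0.07, adjusted p = 0.00423). These were the only calls of the list with PM2.5 in EpH4-AS, 2 of 13 (15.4%) where 11.1% of all genes were called. DESeq2 called 1 fall in this list and limma 2. The difference in effect was called in 1 of 13 (7.69%), where 14.1% of all genes were. In EpH4 the list had 1 rise, in Celsr1, which neither DESeq2 nor limma called, and 0 falls (7.69%, where 27.2% of all genes were called).

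Of 16 genes of the destruction complex and the cytoplasmic steps, 11 were higher and 5 lower in EpH4-AS with PM2.5, and 11 and 4 without. With PM2.5, 0 rose and 3 fell in EpH4-AS (18.8%, where 11.1% of all genes were called). In EpH4 2 rose and 5 fell (43.8%, where 27.2% were). The effect was higher in EpH4-AS for 1 and lower for 1 (12.5%, where 14.1% were). Axin1, the scaffold of the complex, averaged 178 and 212 CPM in EpH4-AS with and without PM2.5 and 79.4 and 93.0 in EpH4, and fell with PM2.5 in both lines (log2 -0.25 ± 0.05 in EpH4-AS and -0.23 ± 0.05 in EpH4). The kinase Gsk3b was lower in EpH4-AS with PM2.5 (log2 -1.13 ± 0.06) and without (-1.62 ± 0.06), it fell with PM2.5 in EpH4 (-0.42 ± 0.06), and that effect differed from the one in EpH4-AS (0.49 ± 0.09, adjusted p = 0.00226). Among 14 nuclear effectors 9 were higher and 3 lower in EpH4-AS with PM2.5, and 11 and 3 without. Against the same shares of all genes, 0 rose and 1 fell with PM2.5 in EpH4-AS (7.14%), and 2 rose and 1 fell in EpH4 (21.4%). The effect was higher in EpH4-AS for 1 and lower for 3 (28.6%). The corepressor Tle4 averaged 46.8 and 42.8 CPM in EpH4-AS with and without PM2.5 and had 1 count over all EpH4 libraries. Tcf7l1, a TCF that mainly represses, averaged 38.3 and 53.0 CPM in EpH4-AS and 13.9 and 13.4 in EpH4, fell with PM2.5 in EpH4-AS (log2 -0.47 ± 0.08, adjusted p = 0.00186), and differed in that effect from EpH4 (-0.51 ± 0.12, adjusted p = 0.0131).

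The list of 22 beta-catenin target genes shares Axin2, Rnf43, Znrf3 and Dkk1 with the genes described above, so it is not a separate reading. Of its 17 tested genes, 1 rose and 1 fell with PM2.5 in EpH4-AS (Cd44 and Axin2), where 11.1% of all genes were called, and 6 rose and 0 fell in EpH4, where 27.2% were. The rises in EpH4 numbered 3 by DESeq2 and 2 by limma on log2(RPKM + 1), and the fall of Axin2 in EpH4-AS was not called by DESeq2. The 6 called by edgeR were Tbx3, Ccnd1, Tcf7, Apcdd1, Axin2 and Notum, led by Tbx3 with 142 ± 9.99 and 95.4 ± 3.69 CPM with and without PM2.5 (log2 0.57 ± 0.06, adjusted p = 2.67e-05). Over the 17 tested genes the effect of PM2.5 differed between the lines in 3 (17.6%, where 14.1% of all genes were called), lower in EpH4-AS each time. They were Axin2, the cyclin gene Ccnd1 (-0.53 ± 0.09, adjusted p = 0.00211) and Tcf7 (-0.70 ± 0.20, adjusted p = 0.0304), all among the 6 that rose in EpH4. Between the lines the targets did not go one way: 6 were higher and 9 lower in EpH4-AS with PM2.5, and 7 and 9 without. Sox9 (2.22 and 2.75 CPM in EpH4-AS with and without PM2.5, 155 and 145 in EpH4) and Tbx3 were far lower in EpH4-AS, and Myc was 2.14-fold and 2.17-fold higher.

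Promoter windows were available in RefSeq for 28 of the 43 genes, 32 windows in all, on GRCm38.p6. The letters CTTTGAT or CTTTGAA, read on both strands, occurred in 3 of them (9.38%) and in 8.65% of all 32851 windows. The 3 were windows of Dkk1, which had 0 counts, Wnt11 and Wnt5b, so the motif was near the background share in this family. The windows of the 13 genes at 1 CPM or more held a median of 23 CpG (3 to 58) and those of the 15 others 26.5 (6 to 53), against a median of 7 over all windows, and their median G and C content was 66.5% and 68.2% against 52.7%. The CpG numbers of genes at 1 CPM or more and of the others overlapped over most of their range. Rnf43 stood apart from the other genes at 1 CPM or more, with windows of 10 and 3 CpG at its 2 starts, as did 2 of the 3 windows of Wnt5b with 7 and 4.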

How the data were processed

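The authors deposited raw counts of reads per gene as whole numbers and, per library, RPKM values scaled to gene length and library size; both deposited count tables held equal values. The genome build was GRCm39 per the submitters' processing notes; the aligner, counter, use of strand and annotation release were not given in the sources used here. Libraries were made from polyadenylated RNA with a stranded kit, per the labels' protocols, and the labels give 1 batch.

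The genes and lists described here were chosen with earlier results of these data known. Every member was accounted for, those averaging 1 CPM or more in a group were given per library, and of each list up to 4 genes with the smallest adjusted p in a comparison could be named. Beyond that rule, all 6 beta-catenin targets called higher with PM2.5 in EpH4 were named, as were all the R-spondins and their receptors. Of 25413 genes 19932 had a count, and 13716 with 99.964% of all counts passed filterByExpr and were tested. edgeR 4.0.16 in R 4.3.3 fitted a quasi-likelihood model of the 4 groups to TMM-scaled counts (biological coefficient of variation 4.67%, 4 residual degrees of freedom), with 5 comparisons per gene, two-sided tests and Benjamini-Hochberg adjustment. The fit kept edgeR's default prior count. A prior count of 2 was used for the log2 CPM by which same-numbered libraries were compared. Where the lower group had 0 counts, 3 counts over that group gave a bound on the fold; with 1 to 3 counts, an exact 95% counting interval is given. Alternatives were DESeq2 1.42.0 size factors and its Wald test, other filters, a replicate block, a fit to the libraries compared, limma 3.58.1 on log2(RPKM + 1), and each library left out; a group left with 1 library then borrowed its spread from the other groups. The script was tested on simulated data. Promoter windows and motifs were read with Python 3.11.15.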

Additional observations from a re-analysis of the deposited data

Results flagged for a closer look

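The effect of PM2.5 differed between the lines by a test of the difference itself in 4 of 24 genes (16.7%, where 14.1% of all genes were called). It is given here as the log2 change in EpH4-AS minus that in EpH4. For Axin2 it was -0.81, for Wnt9a -0.90, for Lgr4 -0.43 and for Lrp5 -0.31. No group had the 4 or more libraries that a check for single outlying libraries needs.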

How the results depend on the processing

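Of 57 called differences in single genes, 44 were called in every alternative run, and over 903 alternative values 848 were on the same side of the threshold, 55 were no longer called and 0 changed direction. Between the lines the number of genes called was 19 to 22 with PM2.5 and 22 to 24 without. The counts for PM2.5 were less stable. In EpH4-AS the 5 calls became 2 with DESeq2, Lrp5 and Lrp6, and between 1 and 6 when a library was left out, 1 without any of the 4 EpH4-AS libraries. In EpH4 the 4 calls became 1 without EpH4 PM2.5 replicate 2, 2 without EpH4 untreated replicate 2, and 3 or 4 without any other library. The 4 differences between the lines became 2 with DESeq2 and 1 to 5 when a library was left out. The cause was not tested. With the replicate number as a block the counts were 4 and 3 for PM2.5 in EpH4-AS and EpH4, 21 and 23 between the lines with and without PM2.5, and 4 for the difference. The numbers are not said to mark shared batches, and same-numbered libraries deviated together with r from -0.101 to 0.065. A pairing crossed in EpH4 with PM2.5, chosen after seeing the data, gave 6, 6, 21, 23 and 4. The median log2 difference of all genes between the untreated lines was -0.06 in the analysis reported and -0.06 with DESeq2 size factors. It was -0.16 with no filter, which takes in other genes, and 0.10 with limma on log2(RPKM + 1), another measure. With 2 libraries a group and 4 residual degrees of freedom, the changes of weakly expressed genes have wide errors, 0.20 for Wnt9a and 0.13 for Axin2 with PM2.5 in EpH4-AS on the log2 scale, against 0.05 for Lrp5.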
